A study of Mus musculus with 8 samples.

Results

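The Rel subunits of NF-κB are 5 genes, Rela, Rel, Relb, Nfkb1 and Nfkb2. They were taken by gene symbol from a table of 11415 genes, and all 5 were found and passed the filter on low values in both measures. The table came from ribosome-depleted, strand-specific RNA sequencing of mouse bone marrow-derived macrophages, which are bone marrow precursors grown for 5 days with M-CSF conditioned medium. Each gene has a mature transcript value (mRNA) and a precursor transcript value (pre-mRNA, unspliced RNA). All cells carried the same genotype, IL10-/-RAG2-/- on the strain 129S6/SvEvTac, so they could make no IL-10 of their own and the mice had no mature T or B cells. There were 4 groups of 2 libraries. In the first, cells received LPS, a bacterial lipopolysaccharide, and the cytokine IL-10 at 1 ng/mL together for 195 min (IL-10 throughout). In the next, cells received LPS for 195 min and IL-10 in the last 30 min only, at a dose that the labels do not restate (late IL-10). The remaining groups received LPS alone at 1 ng/mL for 195 min, or nothing (untreated). Each group drew on 2 independent macrophage pools, so p-values reflect how far the libraries of a pair differ, which may include technical variation.

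NF-κB is a family of dimeric transcription factors that Toll-like receptor 4 activates within minutes of LPS, when inhibitory IκB proteins are phosphorylated by IκB kinases and degraded. Rela (p65), Rel (c-Rel) and Relb carry a transactivation domain. Nfkb1 and Nfkb2 encode the precursors p105 and p100, which hold an IκB-like part, restrain other subunits, and are processed to the DNA-binding subunits p50 and p52. Rela with p50 is the classical dimer of the canonical route, and Relb with p52 is the dimer of the slower non-canonical route. Rel is best known in macrophages for its role at the Il12b promoter. Several of these genes are themselves known NF-κB targets.

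All 5 genes lie on different or distant loci (genome build GRCm38). Rela is on chromosome 19 from 5637483 to 5648130 on the plus strand, and Nfkb2 is on the same chromosome from 46304320 to 46312385, also plus. Rel is on chromosome 11 from 23736847 to 23770970, Relb on chromosome 7 from 19606217 to 19629438 and Nfkb1 on chromosome 3 from 135584655 to 135691547, all on the minus strand. Nfkb1 spans 106893 bases with 25 exons in its longest coding transcript, against 8066 bases for Nfkb2. Nfkb2 shares 299 bases with Psd, a gene on the opposite strand that is also in the table. It shares 1292 bases with AC114539.1, a non-coding gene on the opposite strand, and Nfkb1 shares 3897 bases with Gm43430 on its own strand. Neither AC114539.1 nor Gm43430 is in the table. The libraries were directional, but the counter's strand setting is not given in the sources used here. Reads of the stretches shared with opposite-strand genes could therefore belong to either gene. Strand cannot separate Gm43430 from Nfkb1.

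Promoter windows of the 250 bases before each RefSeq start were available for Rela, Rel and Nfkb2, the last with 3 starts, and were searched on both strands for the κB consensus. Of 32851 windows 3.9% held it, and 4.59% of the 11232 windows of genes in the table did. The looser pattern GGGNNNNNCC, which includes the consensus, was in 45.8% and 61.2% of them, and all 5 windows held it. Rel had a consensus match at position -92 from its start. Nfkb2 had matches at -39 and -11 before start 1, at -236 before start 2 and at -225 before start 3. Rela had no match to the consensus in its window. The stretches below (RefSeq, GRCm38.p6, 5′ to 3′ on each gene's strand, capitals marking the consensus match on either strand) are shown for the genes with a window. They lie at chr11:23771010-23771109 for Rel, chr19:5637381-5637480 for Rela, and chr19:46304688-46304717, chr19:46305449-46305478 and chr19:46305695-46305724 for the 3 starts of Nfkb2. The stretches of Nfkb2 starts 1 and 3 lie at least partly in annotated untranslated regions. The stretch of start 1 holds the match at -39 and ends before the match at -11, which is not shown. Nfkb1 and Relb had no window, so matches cannot be set against the size of the LPS changes. A match describes the letters only.
Rel: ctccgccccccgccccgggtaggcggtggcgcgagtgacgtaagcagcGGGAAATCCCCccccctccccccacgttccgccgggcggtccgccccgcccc
Rela: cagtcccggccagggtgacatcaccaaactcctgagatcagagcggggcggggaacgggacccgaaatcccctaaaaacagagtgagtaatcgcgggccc
Nfkb2 start 1: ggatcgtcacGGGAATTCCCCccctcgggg
Nfkb2 start 2: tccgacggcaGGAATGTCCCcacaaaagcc
Nfkb2 start 3: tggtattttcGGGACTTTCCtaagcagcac

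Depth, summed over all genes listed, was 21412968 to 53172133 reads per library for mRNA, and 8661271 to 31508394 for pre-mRNA. Values below are normalized reads, that is reads divided by the size factor of their library. The library with the larger size factor is called A and the other B, separately for each group and measure, so that A in one group need not be the pool of A in another. Of 9 macrophage marker genes all were present, with summed mRNA of 662712 to 678128 normalized reads with IL-10 throughout, 837398 to 838961 under late IL-10, 819945 to 878655 with LPS and 525511 to 533351 in untreated cells. Markers of other cell types summed to at most 3244 (neutrophil, 7 genes), 5608 (T cell, 3 genes, nearly all Cd28), 2175 (endothelial, 2 genes) and 33.1 (stromal, 1 gene). The T cell genes Cd3e, Cd3d, Cd3g and Cd8a, the neutrophil genes Ly6g, Elane and Cxcr2 and all 5 B cell markers were not among the genes of the table. With LPS against untreated by mRNA, 5 of the 7 neutrophil genes and 4 of 5 dendritic cell genes were called higher, with medians of 2.87 and 2.77. Of all genes 19.2% were called higher there. The neutrophil sum is mostly Mmp8, which did not rise with LPS. Mmp8 had 1799 and 1346 normalized reads with IL-10 throughout, 1832 and 1396 under late IL-10, 1423 and 1726 with LPS and 1599 and 2556 in untreated cells. S100a9 had 174.3 and 136 with IL-10 throughout, 345.1 and 252.6 under late IL-10, 248.3 and 326.4 with LPS and 45.6 and 9.93 in untreated cells. With IL-10 throughout against LPS, limma-trend called 0 of 7 and 0 of 5, with medians of -0.66 and -0.90. The part of neutrophils in the values of the subunits was not tested. Dendritic cell genes are given by library beside Rel.

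LPS raised the transcripts of all 5 subunits, and did so least for Rela. By mRNA the ratio of means of LPS-treated to untreated cells was 15.2 for Nfkb1, 14.4 for Nfkb2, 9.77 for Rel, 6.79 for Relb and 3.18 for Rela. All 5 of 5 passed the test as higher, where 19.2% of the 11415 genes tested did (limma-trend, Benjamini-Hochberg adjusted p under 0.05). Their median log2 change was 3.26, against 0.01 for all genes. In such bulk RNA, more cells expressing a gene and more RNA per cell cannot be told apart.

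Rela, the transactivating subunit of the classical dimer, had 15505 and 14098 normalized mRNA reads in the 2 LPS libraries, against 3972 and 5332 in untreated ones. The groups stood clearly apart, and the log2 change of Rela was 1.68 (SE 0.21, adjusted p = 0.00156). Rel had 10391 and 18175 normalized reads with LPS, against 1728 and 1194 in untreated cells. The LPS libraries differed from each other by 1.75 times, yet both lay far above the untreated ones, and the log2 change was 3.26 (SE 0.43, adjusted p = 0.00194). Relb, the partner of p52, had 9389.9 and 8806 normalized reads with LPS, against 1100.1 and 1581 in untreated cells. Its LPS libraries lay close together, and it rose by 2.78 (SE 0.21, adjusted p = 0.000229).

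The precursor genes showed the highest ratios. Nfkb1 had 67159.7 and 80436 normalized mRNA reads with LPS, against 4591 and 5129.9 in untreated cells, a log2 change of 3.92 (SE 0.24, adjusted p = 0.000112). Nfkb2 had 28438 and 36889.9 with LPS, against 1713 and 2814 in untreated cells, a log2 change of 3.88 (SE 0.29, adjusted p = 0.000229). No library of either group overlapped the other for any subunit, and 34.7% of all genes separated in this direction. Among all tested genes 3.45% had a larger log2 change than Nfkb1.

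**Figure D1:**
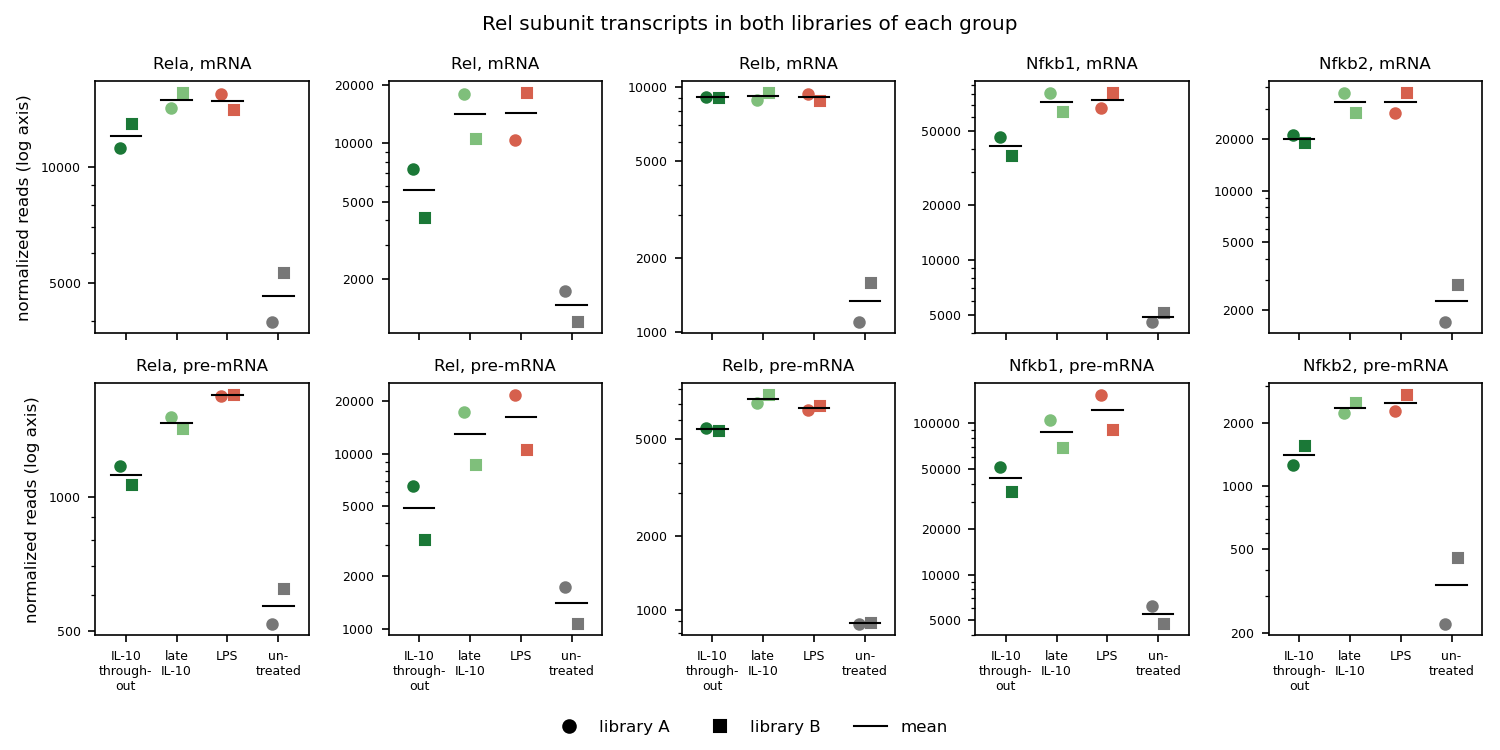
Normalized reads (log axis, its range set per panel) of the 5 Rel subunits as mRNA (top) and pre-mRNA (bottom) in 4 groups, with library A as a circle, library B as a square and the mean as a line. The untreated libraries are the lowest in all 10 panels, and IL-10 throughout lies below LPS in every panel except Relb mRNA.

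The precursor transcripts moved the same way. By pre-mRNA all 5 rose with LPS, where 22.3% of the 11131 genes tested did, and 36.2% of all genes had libraries that did not overlap in this direction, as all 5 did. Nfkb1 pre-mRNA had 154568 and 89994 normalized reads with LPS, against 6219.7 and 4737 in untreated cells, a log2 change of 4.44 (SE 0.53, adjusted p = 0.000624). Rel pre-mRNA had 21676 and 10516 with LPS, against 1735 and 1067 in untreated cells, a change of 3.47 (SE 0.54, adjusted p = 0.00193). In both genes library A was the higher one in both groups, while the LPS and untreated values remained far apart. Nfkb2 pre-mRNA had 2270.2 and 2713 with LPS, against 222.1 and 454.6 in untreated cells, a change of 2.96 (SE 0.34, adjusted p = 0.000504). Relb pre-mRNA had 6605 and 6830.4 with LPS, against 875.7 and 884.5 in untreated cells, a change of 2.93 (SE 0.20, adjusted p = 7.5e-05). Rela pre-mRNA had 1682 and 1692 with LPS, against 518.3 and 619.3 in untreated cells, a change of 1.57 (SE 0.19, adjusted p = 0.000716). With libraries scaled by their total reads the Rela pre-mRNA change was 0.66 and did not pass (adjusted p = 0.081); the other 9 mRNA and pre-mRNA changes of the subunits did.

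The unequal rises changed the makeup of the family. Levels of different genes were compared as mRNA reads per kilobase of the longest coding transcript, summed over the 5 genes. Summed levels were 35058 and 40741 per kilobase in the LPS libraries, against 3753 and 4817 in untreated ones. Nfkb1 made up 46.5% and 48.0% of the sum with LPS, against 29.7% and 25.9% in untreated cells. Rela made up 16.3% and 12.7% with LPS, against 39.0% and 40.8% in untreated cells, where it was the most abundant of the 5. Nfkb2 held 21.1% and 23.5% with LPS, against 11.9% and 15.2% in untreated cells. Relb held 12.1% and 9.79% with LPS, against 13.3% and 14.9%, and Rel held 3.97% and 5.97% with LPS, against 6.17% and 3.32% in untreated cells. The shares of Nfkb1, Nfkb2, Rela and Relb did not overlap between these groups, and those of Rel did. These shares are given as values, since an exact permutation test of 2 libraries against 2 cannot reach a p under 0.05. Lengths of the merged exons of all coding transcripts gave 49.5% for Nfkb1 and 14.2% for Rela with LPS, against 29.5% and 39.7% in untreated cells (means of 2 libraries).

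With IL-10 throughout, Nfkb1 made up 43.4% and 38.5%, Nfkb2 21.0% and 21.2%, Rela 15.9% and 20.4%, Relb 15.9% and 17.6%, and Rel 3.81% and 2.35%. The summed level was then 26021 and 23306 per kilobase. The order per kilobase, Nfkb1 above Nfkb2 above Rela above Relb above Rel, held in both libraries of LPS and of late IL-10. With IL-10 throughout the shares of Rela and Relb overlapped, and in untreated cells the order was Rela, Nfkb1, then Relb and Nfkb2 with shares that overlapped, then Rel.

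**Figure D2:**
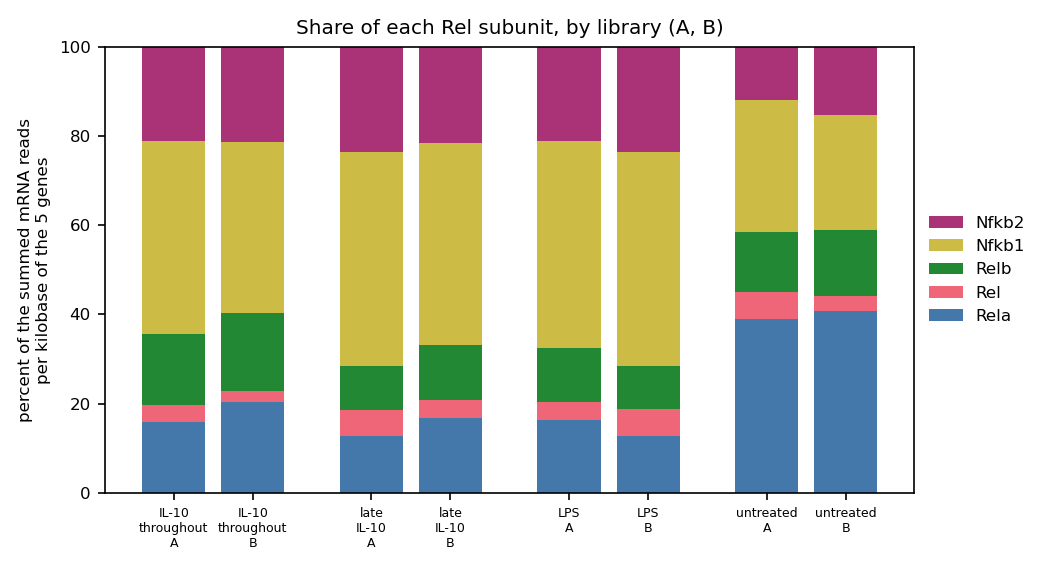
Stacked bars give each subunit's percent of the summed mRNA reads per kilobase of the 5 genes in each of the 8 libraries (A and B of 4 groups). Rela fills 39.0% and 40.8% of the untreated bars and at most 20.4% of any LPS-treated bar, and Nfkb1 fills at least 38.5% of every LPS-treated bar.

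IL-10 given throughout left the subunits lower than LPS alone did in most cases, but 0 of 5 passed the test in either measure. In mRNA, Rel stood at 40.2% of its LPS level, Nfkb1 at 56.5%, Nfkb2 at 61.3%, Rela at 81.5% and Relb at 99.9%. Limma-trend called 1.05% of all genes lower in this comparison, limma-voom called 0 of the 5 subunits, and 2 of the 5 were lower at an unadjusted p under 0.05, as were 8.37% of all genes. Both libraries with IL-10 throughout were below both LPS libraries for 4 of 5 subunits, and for 21.3% of all genes. The median log2 change of the subunits was -0.69, against -0.02 for all genes.

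Rel had 7399 and 4087 normalized mRNA reads with IL-10 throughout, against 10391 and 18175 with LPS, a log2 difference of -1.32 (SE 0.43, adjusted p = 0.21, 95% interval -2.35 to -0.30). Nfkb1 had 46478 and 36899 with IL-10 throughout, against 67159.7 and 80436 with LPS, a difference of -0.83 (SE 0.24, adjusted p = 0.16, 95% interval -1.39 to -0.26). Nfkb2 had 21045 and 19030.3 with IL-10 throughout, against 28438 and 36889.9 with LPS, a difference of -0.69 (SE 0.29, adjusted p = 0.34). For these 3 genes every library with IL-10 throughout was the lower one, and the test over all genes did not separate the groups. Rela had 11212 and 12921 with IL-10 throughout, against 15505 and 14098 with LPS, a difference of -0.30 (SE 0.21, adjusted p = 0.62, 95% interval -0.80 to 0.20). Relb had 9146 and 9035 with IL-10 throughout, against 9389.9 and 8806 with LPS. Its groups overlapped and its difference was -0.0005 (SE 0.21, 95% interval -0.50 to 0.50), a direction that turned to 0.26 with total-read scaling and to 0.02 with TMM scaling. Total-read scaling gave -1.06 for Rel, -0.56 for Nfkb1, -0.43 for Nfkb2 and -0.03 for Rela, and moves the median gene up by 0.25.

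The precursors of all 5 subunits were lower with IL-10 throughout in both libraries, as were 25.6% of all genes, but again 0 of 5 passed limma-trend, which called 4.26% of all genes lower. Limma-voom also called 0 of 5, and 4 of 5 were lower at an unadjusted p under 0.05, as were 13.6% of all genes. Rel pre-mRNA had 6567 and 3189.6 normalized reads with IL-10 throughout, against 21676 and 10516 with LPS, a difference of -1.72 (SE 0.54, adjusted p = 0.10, 95% interval -2.97 to -0.47). Nfkb1 pre-mRNA had 51573 and 35368 with IL-10 throughout, against 154568 and 89994 with LPS, a difference of -1.47 (SE 0.53, adjusted p = 0.15, 95% interval -2.70 to -0.23). Rel stood at 30.3% of its LPS level and Nfkb1 at 35.5%. Nfkb2 pre-mRNA had 1254 and 1555 with IL-10 throughout, against 2270.2 and 2713 with LPS, a difference of -0.83 (SE 0.34, adjusted p = 0.19). Rela pre-mRNA had 1171 and 1062 with IL-10 throughout, against 1682 and 1692 with LPS, a difference of -0.60 (SE 0.19, adjusted p = 0.11). Relb pre-mRNA had 5550.3 and 5426 with IL-10 throughout, against 6605 and 6830.4 with LPS. Its difference of -0.29 (SE 0.20, adjusted p = 0.45) was the smallest of the 5. With total-read scaling, which moves the median gene of this comparison up by 0.46, the differences were -1.26 for Rel, -1.0 for Nfkb1, -0.37 for Nfkb2, -0.13 for Rela and 0.17 for Relb.

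IL-10 throughout did not bring the subunits to their untreated levels. Against untreated cells all 5 were higher in both measures, where 14.2% of genes were called higher by mRNA and 14.1% by pre-mRNA. By mRNA the log2 changes were 3.19 for Nfkb2 (SE 0.29), 3.09 for Nfkb1 (SE 0.24), 2.78 for Relb (SE 0.21), 1.94 for Rel (SE 0.43) and 1.39 for Rela (SE 0.21), with adjusted p of 0.0189 for Rel and at most 0.00442 for the others. Relb, whose mRNA averaged 99.9% of its LPS level, was 6.78 times its untreated mean with IL-10 throughout and 6.79 times with LPS. By pre-mRNA the changes were 2.98 for Nfkb1, 2.64 for Relb, 2.13 for Nfkb2, 1.75 for Rel and 0.98 for Rela (SE 0.53, 0.20, 0.34, 0.54 and 0.19), and Rel was near the threshold at adjusted p = 0.0449. The pre-mRNA count of 5 was 3 without untreated library A (Rel and Rela lost) or B (Nfkb1 and Rel lost), and 2 without IL-10 throughout library A (Nfkb1, Rel and Rela lost, with log2 changes of 2.70, 1.23 and 0.91). The mRNA call of Rel was lost on leaving out either untreated library or IL-10 throughout library A, with changes of 2.20, 1.67 and 1.51, and the pre-mRNA call of Rel was lost with no filter on low values (adjusted p = 0.0857).

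**Figure D3:**
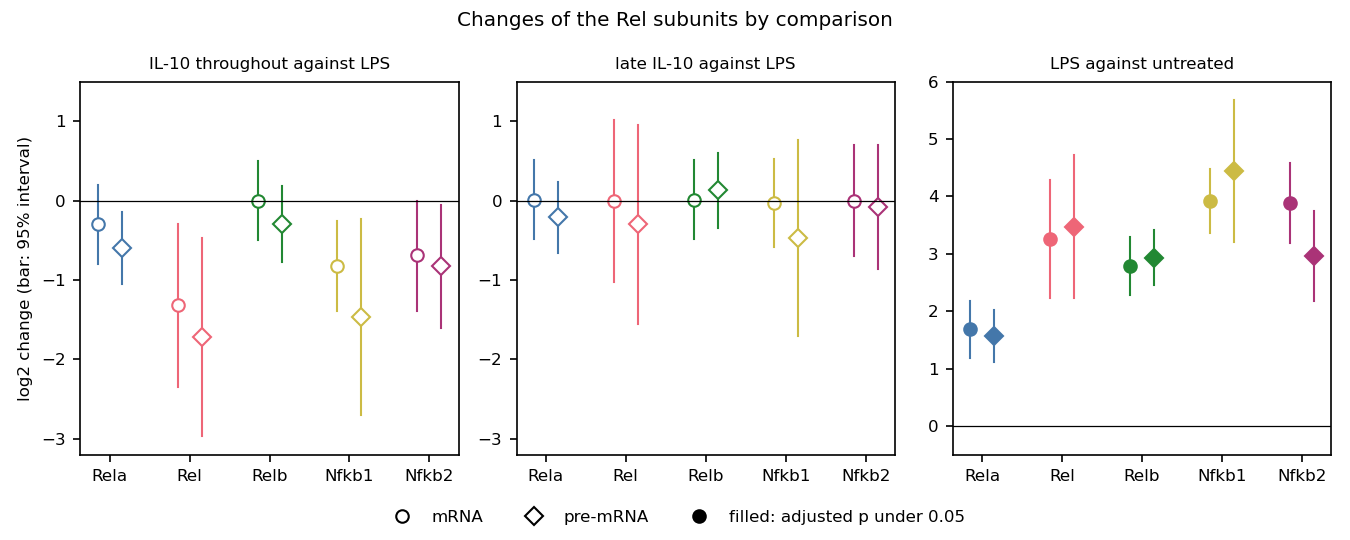
Log2 changes of the 5 subunits in 3 comparisons, mRNA as circles and pre-mRNA as diamonds, filled where the adjusted p is under 0.05, with 95% intervals as bars. All 10 values are filled for LPS against untreated and none for the IL-10 comparisons, where Rel and Nfkb1 lie lowest with IL-10 throughout.

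No difference in subunit mRNA was detectable between late IL-10 and LPS alone. Late IL-10 libraries had 80972 and 64111 normalized reads of Nfkb1, against 67159.7 and 80436 with LPS, and 17935 and 10456 of Rel, against 10391 and 18175. Nfkb2 had 37105 and 28339.5 under late IL-10, against 28438 and 36889.9 with LPS. Rela had 14210.0 and 15570.0 under late IL-10, against 15505 and 14098 with LPS, and Relb had 8861 and 9471, against 9389.9 and 8806. All 5 overlapped with the LPS libraries, the log2 differences lay between -0.03 and 0.01, and the 95% intervals ran from -0.49 to 0.51 for Rela and Relb and from -1.03 to 1.02 for Rel. Limma-trend called 0 of the 5 and 0% of all genes, limma-voom called 0 genes, and at an unadjusted p under 0.05 0 of the 5 stood apart, beside 0.806% of all genes higher and 0.131% lower.

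By pre-mRNA the late IL-10 mean lay between those of IL-10 throughout and LPS for 4 of 5 subunits. Nfkb1 pre-mRNA had 105952 and 68345 normalized reads with late IL-10, against 154568 and 89994 with LPS, a difference of -0.47 (SE 0.53, 95% interval -1.70 to 0.76). Rel pre-mRNA had 17297 and 8657 under late IL-10, against 21676 and 10516 with LPS, a difference of -0.30 (SE 0.54) that became 0.22 without LPS library A. Both genes overlapped between these groups. Rela pre-mRNA had 1508 and 1415 under late IL-10, against 1682 and 1692 with LPS, both libraries lower (-0.21, SE 0.19), as for 14.1% of all genes. Relb pre-mRNA had 7059 and 7611 under late IL-10, against 6605 and 6830.4 with LPS, both libraries higher (0.13, SE 0.20), as for 13.1% of all genes. Nfkb2 pre-mRNA had 2219 and 2479.9 under late IL-10, against 2270.2 and 2713 with LPS (-0.08, SE 0.34). Limma-trend called 0 of the 5 subunits, beside 0.979% of all genes higher and 0.0629% lower, limma-voom called 0 of the 5, and 0 of the 5 had an unadjusted p under 0.05, as 4.98% of all genes did in the higher direction and 2.63% in the lower. All 5 were higher with late IL-10 than in untreated cells in both measures, where 19.3% of genes were called by mRNA and 21.9% by pre-mRNA. Under total-read scaling the Rela pre-mRNA change against untreated cells was 0.47 under late IL-10 and 0.52 with IL-10 throughout, and neither passed.

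Set against late IL-10, cells with IL-10 throughout had lower Rel, Nfkb1 and Nfkb2 mRNA in both libraries. The log2 differences were -1.32 for Rel (SE 0.43, adjusted p = 0.24), -0.80 for Nfkb1 (SE 0.24, adjusted p = 0.20) and -0.70 for Nfkb2 (SE 0.29, adjusted p = 0.36). Rela had a difference of -0.31 (SE 0.21) and Relb of -0.01 (SE 0.21). Limma-trend and limma-voom each called 0 of 5, beside 0.569% of all genes called lower by limma-trend. At an unadjusted p under 0.05, 2 of 5 were lower, as were 7.99% of all genes. The libraries of 4 of 5 did not overlap, as for 20.8% of all genes. By pre-mRNA the differences ran from -1.42 for Rel (SE 0.54, adjusted p = 0.18) to -0.39 for Rela (SE 0.19), and limma-trend and limma-voom again called 0 of 5, beside 2.2% of all genes called lower by limma-trend. Here 1 of 5 was lower at an unadjusted p under 0.05, as were 12.9% of all genes, and all 5 had libraries that did not overlap, as 27.1% of all genes did. This comparison shares the IL-10 throughout libraries with the one against LPS, so its values are not a second measurement of the same difference.

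Precursor and mature changes were compared in one fit of both measures, in which 0 of 5 subunits passed for any of 4 comparisons and 0 of 5 had an unadjusted p under 0.05. For LPS against untreated the pre-mRNA change minus the mRNA change was -0.92 for Nfkb2 (SE 0.47, unadjusted p = 0.077) and 0.52 for Nfkb1 (SE 0.51), and 1.24% of all genes passed (10.6% at an unadjusted p under 0.05). For IL-10 throughout against LPS it was negative for all 5, as was the median of all genes (-0.05). The subunit values lay between -0.13 for Nfkb2 (SE 0.47) and -0.64 for Nfkb1 (SE 0.51), and 0.0629% of all genes passed (3.78% unadjusted). For late IL-10 against LPS it lay between -0.44 for Nfkb1 (SE 0.51) and 0.12 for Relb (SE 0.27), with 0.135% of genes passing (3.46% unadjusted). For IL-10 throughout against late IL-10 the value furthest from 0 was -0.41 for Relb (SE 0.27), with 0.494% passing (7.49% unadjusted). Limma-voom was not run on this fit, and both measures come from the same RNA, which the fit treats as independent.

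The 2 libraries of a group differed in some subunits far more than in others. Rel differed by 1.72 to 1.81 times between libraries of an LPS-treated group by mRNA and by 2.00 to 2.06 times by pre-mRNA, against 1.45 and 1.63 times in untreated cells. Relb differed by at most 1.08 times in the LPS-treated groups in either measure. By mRNA the library with more Rel was A with IL-10 throughout, A under late IL-10 and B with LPS, and the same library had more Nfkb1 and Nfkb2 each time. The median of 24 listed NF-κB target genes, in log2 of A minus B, was 0.54 with IL-10 throughout, 0.62 under late IL-10 and -0.43 with LPS, so that it lay on the side of Rel in these 3 groups. In untreated cells it lay on the other side, at -0.32 against 0.53 for Rel by mRNA and at -0.71 against 0.70 by pre-mRNA. By pre-mRNA Rel and Nfkb1 were higher in library A of all 4 groups and Nfkb2 was higher in B of all 4. A difference between libraries counts as error in the fit, and Rel had the widest errors of the 5 in both measures.

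The summed dendritic cell markers, given here for their whole list, were higher in the library with more Rel in each LPS-treated group by mRNA. In untreated cells they were not. Their sum over 5 genes was 4661 and 3057 normalized mRNA reads with IL-10 throughout, 16008 and 8944 under late IL-10, 9528 and 17955 with LPS and 1363 and 2911 in untreated cells (libraries A and B). Itgax, an integrin that macrophages also make, gave most of it, with 4215 and 2686 with IL-10 throughout, 15455 and 8348 under late IL-10, 8923 and 17250.1 with LPS and 1195 and 2759 in untreated cells. The more specific markers were low, with Zbtb46 between 9.93 and 119 normalized reads, Xcr1 between 108 and 437.1, Batf3 between 19.8 and 165.3 and Ccr7 between 0 and 54.5 over the 8 libraries. Batf3 lay on the side of Rel in each LPS-treated group. Ccr7 lay on the other side under late IL-10 (13.84 and 31.22 in A and B) and with LPS (46.37 and 26.61). So did Xcr1 under late IL-10 (288.8 and 437.1) and Zbtb46 with IL-10 throughout (42 and 47.82). In the LPS libraries A and B, Xcr1 (422.5 and 421.6) and Zbtb46 (90.67 and 91.05) were nearly level. Flt3 and Cd209a were not among the genes of the table. The part of such cells in the values of Rel was not tested.

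**Figure D4:**
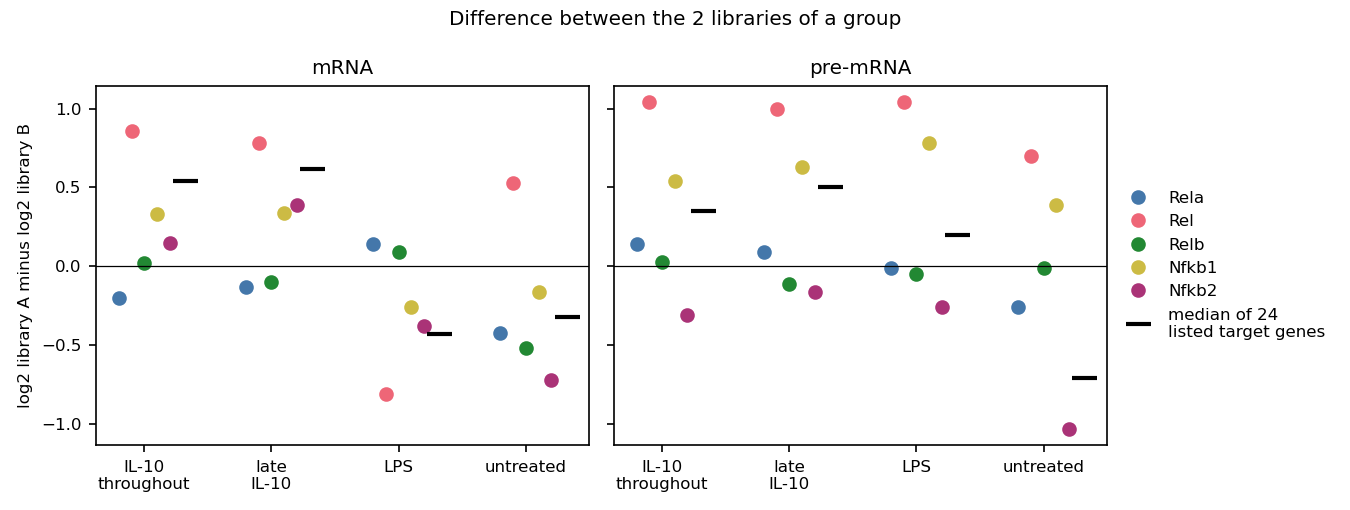
Difference between library A and library B of each group on the log2 scale for the 5 subunits, with the median of 24 listed NF-κB target genes as a black bar, for mRNA (left) and pre-mRNA (right). Rel lies furthest from 0 in every LPS-treated group, and Relb lies within 0.11 of 0 there.

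The genes whose mRNA profile over the 8 libraries was most like that of each subunit were found among 11079 genes by the root mean square difference of centred log2 values. All of these profiles share their libraries and scaling, so likeness is a description. Closest to Relb was Tnfrsf1b, a receptor for TNF, with a difference of 0.0405 and means of 199408 normalized reads with IL-10 throughout, 202596 under late IL-10, 205247 with LPS and 29803 in untreated cells. Rnf19b and Rasip1 followed at 0.11 and 0.134. Closest to Rela were Tjap1 (0.0426), Hnrnpab (0.0643) and Ciapin1 (0.065). Closest to Rel were the integrin gene Itgav (0.133), Lacc1 (0.144) and Kremen1 (0.177). Nfkb1 was most like the protocadherin Pcdh7 (0.137), Zhx2 (0.158) and the corepressor subunit Sap30 (0.17), and Nfkb2 most like the collagen gene Col11a2 (0.105), Cers6 (0.129) and Zhx2 (0.164). Among themselves Nfkb1 and Nfkb2 were the most alike pair, at 0.158, and Nfkb1 and Rela the least alike, at 0.936.

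Genes of the IκB family, which holds cytoplasmic inhibitors and atypical nuclear proteins such as those of Nfkbiz and Bcl3, were mostly higher with LPS, like the subunits. All 6 listed IκB genes were called higher by mRNA, with a median log2 change of 3.90, and 5 of 6 by pre-mRNA, with a median of 3.43. The medians of all genes were 0.01 and 0.00, and 19.2% and 22.3% of all genes were called higher. Nfkbie rose by 5.01 by mRNA (SE 0.21, adjusted p = 2.5e-05) and Nfkbia, the main rapidly resynthesised inhibitor, by 4.46 (SE 0.19, adjusted p = 2.5e-05). With IL-10 throughout against LPS 0 of 6 were called by mRNA by limma-trend (median -0.67), and by pre-mRNA Bcl3 rose and 3 others fell. Of all genes 4.26% were called lower by pre-mRNA there, and 272 of 11131 were called higher. Nfkbiz, an atypical nuclear IκB, had 13566 and 11006 normalized pre-mRNA reads with IL-10 throughout, against 35992 and 40958 with LPS, and fell by 1.65 (SE 0.26, adjusted p = 0.0157). Nfkbib fell by 1.28 (SE 0.24, adjusted p = 0.0239). Bcl3, an IκB protein that binds p50 and p52 dimers in the nucleus, was the gene that rose. Its pre-mRNA had 5734 and 5554 normalized reads with IL-10 throughout, 9466 and 10941 under late IL-10, and 1532 and 1862 with LPS alone. It was higher than with LPS by 1.74 with IL-10 throughout (SE 0.29, adjusted p = 0.018) and by 2.59 under late IL-10 (SE 0.29, adjusted p = 0.00791). For late IL-10 against LPS, 0.979% of all genes were called higher by pre-mRNA. Both Bcl3 calls were lost without either library of the IL-10 group concerned (adjusted p up to 0.115 and 0.0759), and the first also without LPS library A. The Nfkbiz and Nfkbib calls were lost without either IL-10 throughout library (adjusted p up to 0.133 and 0.141) and in a fit of the compared groups only, and that of Nfkbib also without LPS library A and with total-read scaling.

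Of 10 listed IκB kinases and kinases upstream of them, 5 were called higher and 2 lower with LPS by mRNA (median 0.73), against 4 higher and 2 lower in the precursors (median 0.74). Among all genes 19.2% were called higher by mRNA (1887 of 11415 lower) and 22.3% by pre-mRNA (2418 of 11131 lower). Ikbke, which encodes an IκB kinase-related enzyme, rose by 2.96 by mRNA (SE 0.34, adjusted p = 0.00109). Map3k14, the kinase NIK of the non-canonical route, fell by 3.07 by pre-mRNA (SE 0.32, adjusted p = 0.000342), with means of 422.7 normalized reads with LPS against 3486 in untreated cells. For IL-10 throughout against LPS, 272 of 11131 genes were called higher by pre-mRNA. With IL-10 throughout against LPS, limma-trend called 0 of 10 by mRNA, and Map3k14 alone rose by pre-mRNA, by 1.42 (SE 0.32, adjusted p = 0.0412), a call lost without LPS library A or any library of untreated cells or of IL-10 throughout (adjusted p up to 0.244), and with no filter on low values or in a fit of the compared groups only.

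Among 13 receptors and adaptors of the canonical route, 7 rose and 1 fell with LPS in both measures, with medians of 0.85 by mRNA and 1.23 by pre-mRNA. Beside them, 19.2% of all genes rose by mRNA and 22.3% by pre-mRNA, while 1887 of 11415 and 2418 of 11131 fell. Myd88, the adaptor shared by most Toll-like receptors, rose by 2.70 by mRNA (SE 0.20, adjusted p = 0.000224), and Tab1, an activator of the kinase TAK1, fell by 2.07 (SE 0.41, adjusted p = 0.00895), a call lost without either untreated library (adjusted p up to 0.0521). With IL-10 throughout against LPS, 1.05% of all genes were called lower by mRNA and 4.26% by pre-mRNA. Of the 13, Ticam2, the bridging adaptor TRAM of Toll-like receptor 4, was the 1 gene that fell in either measure. Its mRNA had 1466 and 1004 normalized reads with IL-10 throughout, against 3970.1 and 4785 with LPS (-1.84, SE 0.25, adjusted p = 0.0172), and the call was lost without either LPS library or without IL-10 throughout library B (adjusted p up to 0.139), and in a fit of the compared groups only.

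Of 9 non-canonical route genes 7 rose with LPS by mRNA and 6 by pre-mRNA, with none lower. The share of all genes that rose with LPS was 19.2% by mRNA and 22.3% by pre-mRNA. Cd40, a receptor that activates this route, rose by 8.54 by mRNA (SE 0.37, adjusted p = 2.7e-05). With IL-10 throughout against LPS, 0 of 9 were called by mRNA, and Cd40 fell by pre-mRNA, where 4.26% of all genes were called lower. Cd40 pre-mRNA had 13169 and 6998 normalized reads with IL-10 throughout, against 57298 and 42170.2 with LPS (-2.36, SE 0.39, adjusted p = 0.0179). That call was lost without IL-10 throughout library B or LPS library A (adjusted p up to 0.119), with no filter, and in a fit of the compared groups only. Among 10 brakes on the pathway 5 rose with LPS by mRNA and 4 by pre-mRNA, led by Tnfaip3, the ubiquitin-editing enzyme A20, which rose by 6.53 by mRNA (SE 0.33, adjusted p = 5.5e-05). Of the 10 brakes 2 were called higher by mRNA with IL-10 throughout against LPS, as were 136 of 11415 genes. By pre-mRNA 0 of 10 were called in that comparison (median -0.11). Tnip2, an A20-binding protein, had 3216 and 3322 normalized mRNA reads with IL-10 throughout, against 1597 and 1517 with LPS, and rose by 1.07 (SE 0.17, adjusted p = 0.0262). Tax1bp1, an A20 adaptor, rose by 1.67 (SE 0.25, adjusted p = 0.0239). Both calls were lost without any single library of LPS or of IL-10 throughout, with adjusted p of up to 0.207 for Tnip2 and 0.139 for Tax1bp1, and in a fit of the compared groups only; that of Tnip2 was also lost without either late IL-10 library.

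Of 10 cofactors and modifiers of Rel subunits, 3 were called higher with LPS by mRNA, and in the precursors 1 was higher and 1 lower. Among all genes 19.2% were called higher by mRNA, and by pre-mRNA 22.3% were higher and 2418 of 11131 genes lower. Rps6ka5, the kinase MSK1 that phosphorylates Rela, had 242.2 and 207.2 normalized mRNA reads with IL-10 throughout, against 1198 and 1025 with LPS. It fell by 2.30 (SE 0.26, adjusted p = 0.00931), which did not pass without any single library of LPS or of IL-10 throughout (adjusted p up to 0.0745). All 24 listed canonical target genes rose with LPS by mRNA (median 8.82) and 22 of 23 tested by pre-mRNA (median 7.63). With IL-10 throughout against LPS 9 of 24 fell by mRNA (median -1.73, against -0.02 for all genes) and 12 of 23 by pre-mRNA (median -1.91), where 1.05% and 4.26% of all genes were called lower.

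Il12b, which encodes the p40 subunit of IL-12 and whose promoter Rel is known to bind, had 269.9 and 226.3 normalized mRNA reads with IL-10 throughout, against 28761 and 65667 with LPS, and fell by 7.45 (SE 0.56, adjusted p = 0.00436). The neutrophil chemokine gene Cxcl1 had 7209.6 and 4233 with IL-10 throughout, against 63380.2 and 62974 with LPS, and fell by 3.52 (SE 0.26, adjusted p = 0.00436). Late IL-10 against LPS gave 0 of 24 calls by mRNA and 0 of 23 by pre-mRNA with limma-trend, with medians of -0.02 and -0.36. Of the 15 changes of listed genes that met the naming rule for IL-10 throughout against LPS, 4 passed with any one of the 8 libraries left out, those of Il12b and Cxcl1 by mRNA and of Il12b and Il6 by pre-mRNA. None of the 5 subunits passed in these 2 comparisons under any alternative that was run.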

How the data were processed

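The authors deposited 1 table with 8 value columns, a signal for mRNA and the same quantity for pre-mRNA in each of 4 groups. Trim Galore, DESeq and mm10 are named, per the submitters' processing notes, without versions. The aligner, the read counter, the annotation and the rule for pre-mRNA reads were not given in the sources used here. Each deposited signal value was found to be the mean of 2 libraries' reads divided by their size factors, and both libraries' reads were solved for exactly (100% of values with 1 solution, largest relative error 5.6e-15 for mRNA). All p-values rest on this step. The table holds no gene with fewer than 11 reads in an LPS mRNA library.

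Log2(normalized reads + 1), a scale that understates changes of low genes, was tested with limma-trend (limma 3.58.1, R 4.3.3). The 8 libraries of a measure entered one fit with a term for group alone. A gene needed a mean of 1 or more (11415 genes for mRNA, 11131 for pre-mRNA). Calls had a Benjamini-Hochberg adjusted p under 0.05 over all genes. Errors are standard errors with n = 2 libraries a group and a spread shared over groups. "Rose" and "fell" mark calls. Scripts were tested on simulated data with known changes.

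The subunits and gene lists were chosen with earlier results of these data known, so lists are described by counts and medians. Of each list at most 2 genes per direction were named, those with the smallest adjusted p, and 3 most similar genes per subunit. Promoters came from RefSeq GRCm38.p6, and gene coordinates from GENCODE M21 (GRCm38, the same assembly as mm10).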

Additional observations from a re-analysis of the deposited data

How the results depend on the processing

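The counts of subunits called in each comparison kept their value, within 1.5 times, under other pseudocounts (0.5, 10), filters (none, a mean of at least 50), scalings (total reads, TMM), limma-voom, fits of the compared groups only, and with each library left out, with 1 exception. For IL-10 throughout against untreated by pre-mRNA the count was 2 to 5 over the fits that left out a library. Of 960 recomputed log2 changes of subunits, 919 kept direction and side of the threshold, 14 lost the call and 27 changed sign. All sign changes concerned changes that had not passed. Total-read scaling moved the median gene of LPS against untreated by -0.74 for mRNA and -0.91 for pre-mRNA, and gave subunit changes of 0.93 (Rela) to 3.17 (Nfkb1) and 0.66 to 3.52. Its share of higher calls was 21.1% by mRNA, against 53.8% with the deposited scaling.

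With total-read scaling Relb was 0.26 by mRNA and 0.17 by pre-mRNA for IL-10 throughout against LPS, and 0.26 and 0.02 against late IL-10, where Rela pre-mRNA was 0.05. For late IL-10 against LPS by mRNA it gave -0.01 for Nfkb2, -0.0003 for Relb and -0.002 for Rela, and Crebbp mRNA was -0.07 for LPS against untreated. TMM scaling gave 0.02 (IL-10 throughout against LPS) and 0.002 (against late IL-10) for Relb mRNA and 0.004 for Rel mRNA (late IL-10 against LPS). With a library left out, late IL-10 against LPS by mRNA ran from -0.20 to 0.14 for Nfkb1, -0.19 to 0.20 for Nfkb2, -0.41 to 0.40 for Rel, -0.06 to 0.08 for Rela and -0.04 to 0.06 for Relb, and by pre-mRNA from -0.82 to 0.22 for Rel and -0.21 to 0.05 for Nfkb2. Relb mRNA ran from -0.05 to 0.05 for IL-10 throughout against LPS and from -0.06 to 0.04 against late IL-10. The cause was not tested.

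No paired analysis was possible because the columns carry no replicate numbers. Any difference between the macrophage pools therefore counts as error in the fits, and a subunit that did not pass may still have changed. The 2 count models listed as alternatives were not run. The solved reads were tested with limma-voom instead. For IL-10 throughout against LPS 2 of 5 subunits by mRNA and 4 of 5 by pre-mRNA had an unadjusted p under 0.05, and none passed the adjustment over all genes.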
